A study of Homo sapiens with 4 samples.

Results

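The genes described here are 10 noncoding host genes of small nucleolar RNAs (snoRNAs): GAS5, SNHG1, SNHG3, SNHG4, SNHG5, SNHG6, SNHG7, SNHG8, SNHG12 and SNHG15. They were taken by name, as members of this class. The rule sets no threshold on a measured value, but earlier results of these data were known when the names were chosen. The deposited tables list 26364 genes, and all 10 hosts are among the 11411 genes with a mean RPKM (reads scaled to transcript length and to the size of the library) of at least 1. The values come from RNA-seq of BE(2)C, a human neuroblastoma cell line with amplified MYCN. In the control group (n = 2) the cells received a non-targeting siRNA, and in the MYCN knockdown group (n = 2) an siRNA against MYCN. By the labels both groups were otherwise wild-type cells that received 80 nM siRNA by lipofection for 6 h, with total RNA taken the next day. The study's methods state a lower final siRNA concentration, after more medium was added to the transfection mix at the end of the 6 h. The study's methods call the RNA-seq replicates biological, and the labels do not say whether they came from separate cultures, so p-values measure the spread between these samples.

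A snoRNA host gene makes RNA of 2 kinds from each transcript. The introns carry snoRNAs, which are trimmed out after splicing and guide the chemical modification of ribosomal RNA: box C/D snoRNAs guide methylation of the ribose, and box H/ACA snoRNAs guide pseudouridylation. The exons are joined into a long RNA without a conserved reading frame, which in several of these genes enters ribosomes and is degraded by nonsense-mediated decay. Many hosts start with a terminal oligopyrimidine tract, a C followed by a run of C and T, as ribosomal protein genes do. MYC family proteins, to which MYCN belongs, bind the E-box CACGTG and are known for activating genes of ribosome production.

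The annotated starts of the host genes show which of them have the oligopyrimidine letters. The 5′ end used is the most frequent start among the GENCODE transcripts of the gene in GRCh37, with ties going to the most upstream. It was the start of 50 of 91 transcripts in GAS5, 5 of 15 in SNHG8, 4 of 19 in SNHG12 and 2 of 14 in SNHG15. No 5′ end was measured in these libraries. Each sequence below runs 5′ to 3′ on the gene's strand, from 60 bases before that end to 40 bases from it on, and capitals mark the run of C and T that begins with a C at the first base. GAS5, SNHG8 and SNHG12 are shown because their starts hold the tract, and SNHG15 because it had the lowest ratio to the control and its start does not hold it.
GAS5, chr1:173837088-173837187, minus strand: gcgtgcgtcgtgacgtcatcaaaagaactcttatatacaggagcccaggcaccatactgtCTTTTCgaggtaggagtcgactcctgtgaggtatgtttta
SNHG8, chr4:119199853-119199952, plus strand: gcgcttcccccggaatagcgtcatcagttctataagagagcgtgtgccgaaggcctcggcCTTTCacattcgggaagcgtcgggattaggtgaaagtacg
SNHG12, chr1:28908346-28908445, minus strand: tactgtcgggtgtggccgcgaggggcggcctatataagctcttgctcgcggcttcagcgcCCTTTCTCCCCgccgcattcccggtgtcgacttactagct
SNHG15, chr7:45026228-45026327, minus strand: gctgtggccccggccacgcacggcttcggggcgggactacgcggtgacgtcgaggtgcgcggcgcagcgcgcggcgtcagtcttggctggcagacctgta

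The run measured 6 bases in GAS5, 5 in SNHG8 and 11 in SNHG12. It measured 7 bases in SNHG6, 4 in SNHG7, 3 in SNHG1 and 2 in SNHG4, and the first base was not a C in SNHG3, SNHG5 and SNHG15. A C followed by at least 4 pyrimidines was therefore found at 4 of 10 host starts. The same letters stood at 3.81% of the starts of 10445 tested genes with an annotated 5′ end, and at 67.1% of the starts of 76 ribosomal protein genes. These shares are descriptions of annotated sequence, and a start a few bases away would give another run.

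The E-box CACGTG reads the same on both strands and was searched around the same 5′ ends. Between 250 bases before and 50 bases after the end it was found in 3 of 10 hosts, against 10.2% of the 10445 genes. Within 1000 bases on either side it was found in 8 of 10 hosts, all but SNHG1 and SNHG12, against 32.5% of the 10445 genes. The wide window held it in 45.9% of the tested genes that were lower after knockdown, 25.2% of those that were higher and 30.1% of those not called. Among 11 other noncoding snoRNA hosts with a window, 9 held the motif. The motif and 12 bases on each side are shown, with the motif in capitals, for the 3 hosts with a match near the start and for both matches of SNHG15.
GAS5, chr1:173837314-173837343, minus strand: ggagcacggcatCACGTGgacggtcatgtc
SNHG4, chr5:138609830-138609859, plus strand: cggagctccgaaCACGTGcgcgtgagtaag
SNHG7, chr9:139622741-139622770, minus strand: ctgagcagcgccCACGTGcgggcgcgggga
SNHG15, chr7:45026136-45026165, minus strand: catcctgggcccCACGTGttgcctgaccat
SNHG15, chr7:45026006-45026035, minus strand: aagccttcactaCACGTGctacttcctctc

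Counted from the 5′ end, with negative positions before it, the motif began at position -204 in GAS5, at -122 in SNHG7 and at 22 in SNHG4. In SNHG15 the motifs began at positions 114 and 244. A match describes letters in a window, and no binding was measured in these libraries.

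**Figure D1:**
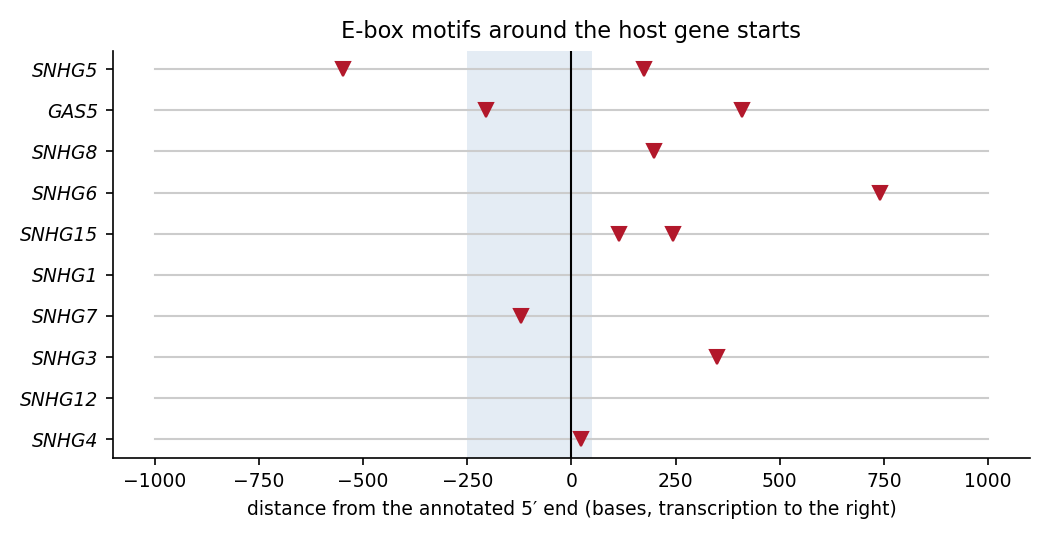
Positions of the E-box motif around the annotated 5′ end of each host gene. The horizontal axis is the distance from the 5′ end in bases with transcription to the right, each triangle is a motif, and the shaded band is the window from 250 bases before to 50 bases after the end. GAS5, SNHG7 and SNHG4 have a motif in the band, and SNHG1 and SNHG12 have none within 1000 bases.

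MYCN itself, the target of the siRNA, stood at 1068 and 1073 RPKM in the control samples and at 720.2 and 718 RPKM in the knockdown samples, which is 67.2% of the control mean (log2 fold change -0.57, SE 0.0286, limma adjusted p = 0.00361). The libraries held 29055819 to 34142988 reads after the authors' normalization, recovered from the steps of the values, so these are not raw depths. All 10 neuroblastoma markers, DBH and TH among them, passed the level filter, and 6 of them rose, where 25.3% of all tested genes were called higher. Of 9 markers of fibroblasts, Schwann cells, leukocytes and endothelium, 4 passed it and all 4 were called higher, with a summed level over the 9 of 16.2 to 16.9 RPKM in the control and 22.6 to 23.7 RPKM in the knockdown samples. Their part in the results below was not tested. In bulk RNA, fewer cells of a type and less RNA per cell cannot be told apart. All 10 hosts had their higher control value in replicate 1 and their higher knockdown value in replicate 2, a pattern shared by 42.9% of all tested genes.

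All 10 host genes fell upon MYCN knockdown, to between 53.3% of the control mean in SNHG15 and 66.1% in SNHG6. For each of them both knockdown values were below both control values. Of the 11411 genes tested, 2599 (22.8%) were called lower and 2890 (25.3%) higher, and 35.8% had both knockdown values below both control values without regard to a call. Fold changes are on the scale of log2(RPKM + 1), and a call is a limma adjusted p under 0.05. The median of the 10 log2 fold changes was -0.65 (quartiles -0.71 and -0.60), against 0.03 over all tested genes. On this scale the smallest fall among the hosts was that of SNHG4, -0.54, a value reached by 8.85% of the tested genes. As a ratio to the control the order differed, since SNHG4 stood at 57.9% and SNHG6 at 66.1%. An exact permutation test of 2 against 2 samples cannot go below p = 0.3333, two-sided, which is the value for each host.

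Among the hosts of box C/D snoRNAs, GAS5 was first found as an RNA that accumulates when growth is arrested. GAS5 stood at 149 and 148 RPKM in the control samples and at 96.2 and 97.1 RPKM in the knockdown samples. Its replicates differed by little beside the gap between the groups, and it fell to 65.2% of the control (log2 fold change -0.61, SE 0.0302, adjusted p = 0.00359). SNHG1, which carries a cluster of C/D snoRNAs, stood at 61.5 and 57.6 RPKM and at 36.1 and 38.5 RPKM after knockdown. It fell to 62.7% of the control (log2 fold change -0.66, SE 0.0583, adjusted p = 0.00632).

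SNHG5, the host of SNORD50A and SNORD50B, was the most abundant of the 10, at 199.99 and 174 RPKM in the control and 111 and 127 RPKM in the knockdown samples. Its replicates were the farthest apart, and its call was the weakest of the 10 (63.6% of the control, log2 fold change -0.65, SE 0.109, adjusted p = 0.0199). SNHG6, the host of SNORD87, stood at 91.3 and 86.7 RPKM against 57.3 and 60.4 RPKM. Its fall was the smallest of the 10 as a ratio to the control, at 66.1% (log2 fold change -0.59, SE 0.05003, adjusted p = 0.00598).

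Among the hosts of box H/ACA snoRNAs, SNHG15 carries SNORA9. It stood at 67.2 and 63.2 RPKM in the control and at 33.7 and 35.8 RPKM in the knockdown samples. This was the lowest ratio of the 10, 53.3% of the control (log2 fold change -0.89, SE 0.0557, adjusted p = 0.00422). SNHG7, the host of SNORA17 and SNORA43, stood at 46.7 and 42.8 RPKM against 24.5 and 26.7 RPKM. It fell to 57.2% of the control (log2 fold change -0.78, SE 0.0721, adjusted p = 0.00664).

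SNHG8, the host of SNORA24, was close between replicates, at 112 and 111 RPKM in the control and 67.6 and 68.7 RPKM in the knockdown samples, 61.1% of the control (log2 fold change -0.70, SE 0.0323, adjusted p = 0.00359). SNHG3 carries SNORA73B, whose family takes part in the cleavage of the ribosomal RNA precursor. It stood at 28.2 and 25.6 RPKM against 15.3 and 16.8 RPKM, 59.7% of the control (log2 fold change -0.71, SE 0.0797, adjusted p = 0.00905).

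SNHG4, the host of SNORA74A, was the least abundant, at 2.90 and 2.79 RPKM in the control and 1.60 and 1.69 RPKM in the knockdown samples. These values rest on 153 and 138 reads against 72 and 81 reads, the fewest of the 10. It stood at 57.9% of the control, a lower ratio than its log2 fold change of -0.54 (SE 0.0436, adjusted p = 0.00564) conveys, since adding 1 RPKM compresses the change of a low gene. SNHG12 carries snoRNAs of both classes. It stood at 14.2 and 13.4 RPKM against 8.52 and 9.01 RPKM, 63.5% of the control (log2 fold change -0.60, SE 0.0539, adjusted p = 0.00644).

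**Figure D2:**
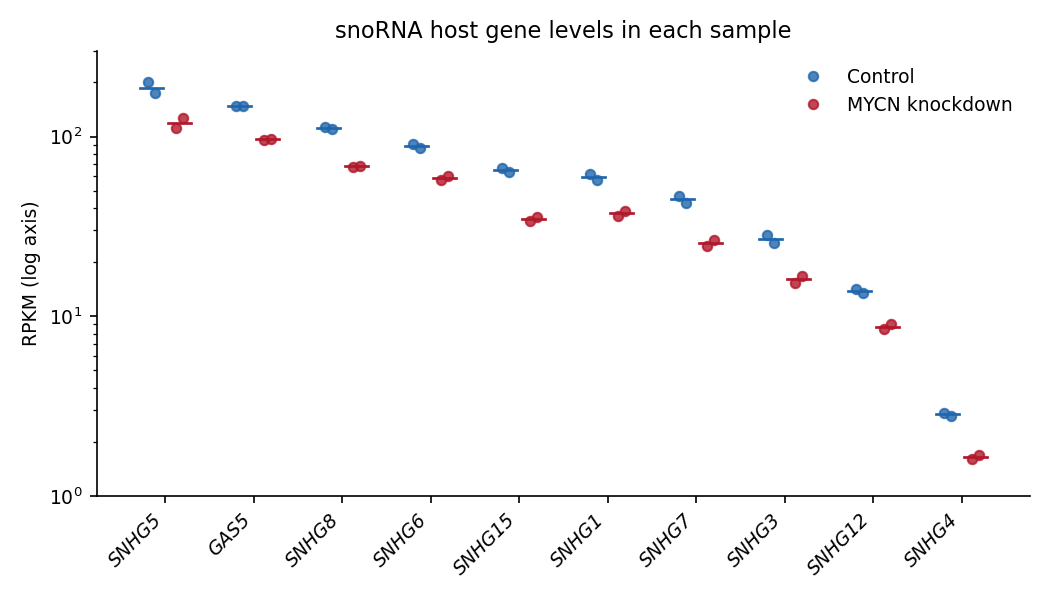
RPKM of each host gene in the 4 samples, on a log axis, with genes in the order of their control mean. Points are samples and horizontal bars are group means; in every gene both knockdown points lie below both control points, from SNHG5 at 111 to 199.99 RPKM down to SNHG4 at 1.60 to 2.90 RPKM.

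RPKM is a level per length, so the hosts can be ranked within a sample. The control order was SNHG5, GAS5, SNHG8, SNHG6, SNHG15, SNHG1, SNHG7, SNHG3, SNHG12 and SNHG4. The neighbours SNHG5 and GAS5, and likewise SNHG15 and SNHG1, were separated by less than the wider gap between replicates of the pair, in the control and in the knockdown samples. The knockdown order was the same except that SNHG1 and SNHG15 changed places. The ratio of SNHG1 to SNHG15 was 0.915 and 0.911 in the control samples and 1.07 and 1.08 in the knockdown samples. The ratio of SNHG15 to GAS5 was 0.452 and 0.428 against 0.350 and 0.369. Neither ratio overlapped between the groups, with the same limit of p = 0.3333 for an exact permutation test. Both ratios include SNHG15, the host with the lowest ratio to the control, so they restate its larger fall. The reads behind these levels, after the authors' normalization, ran from 72 in SNHG4 in a knockdown sample to 4265 in SNHG7 in a control sample. The lengths inferred with them from the values ran from 472 bases in SNHG6 to 2676 bases in SNHG7, and they are not annotated transcript lengths. SNHG5 had 3462 and 2823 reads in the control samples against 1634 and 1994 reads, and GAS5 had 3210 and 2984 against 1767 and 1898 reads, so counting error was small beside the change in both. The limma SE was below the counting error of the log2 ratio of the summed reads in SNHG4 (0.0436 against 0.144), SNHG12 (0.0539 against 0.0918) and SNHG8 (0.0323 against 0.0358). Their log2 ratios of summed reads, scaled to library size, were -0.79, -0.65 and -0.71. Summed over the 10 hosts, the level was 773 and 725 RPKM in the control samples and 452 and 482 RPKM in the knockdown samples.

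The snoRNAs inside the introns are rows of their own in the tables. Of 32 snoRNAs assigned to the 10 hosts 31 were listed and 28 passed the level filter. In the limma fit 18 were called lower, SNORD75 was called higher and 9 were not called, with a median log2 fold change of -0.73. Of all tested genes 22.8% were called lower and 25.3% higher. For all 19 called snoRNAs the limma SE was below the counting error of the log2 ratio of the summed reads, which ran from 0.155 to 0.904, so single calls on few reads are weaker than their adjusted p. As each snoRNA is short and carries at most 136 reads in a sample, the reads were also summed by host. All 31 together had 891 and 895 reads in the control samples and 428 and 440 reads in the knockdown samples, or 27.0 RPM (reads scaled to library size, 95% exact Poisson interval 25.8 to 28.3, counting error only) against 14.5 (13.5 to 15.5), which is 53.6% of the control. Standard libraries recover such short RNAs poorly, and reads from a mature snoRNA and from the unspliced intron cannot be told apart here.

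SNORD78 illustrates what these rows are: it is a box C/D snoRNA from an intron of GAS5, of 65 bases, with its C box core and D box in capitals. It was chosen for display because its GRCh37 position was in the annotation.
SNORD78, chr1:173834760-173834824, minus strand: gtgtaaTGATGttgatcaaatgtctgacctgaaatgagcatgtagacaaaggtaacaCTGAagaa

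SNORD78 had 5 and 8 reads in the control and 6 and 3 reads in the knockdown samples, which overlap. The 10 snoRNAs of GAS5 together had 441 and 447 reads against 210 and 217 reads, 53.0% of the control in RPM. SNORD80, the snoRNA with the most reads, had 136 and 126 against 63 and 67 reads (log2 fold change -0.85, SE 0.0323, adjusted p = 0.00359). SNORD47, with 120 and 93 against 47 and 61 reads, and SNORD81, with 72 and 66 against 38 and 42 reads, were also called lower. SNORD79 had 29 and 27 against 15 and 17 reads, SNORD77 had 13 and 12 against 7 and 7 reads and SNORD74 had 12 and 9 against 2 and 3 reads. These 3 were called lower too, with counting errors of 0.320, 0.482 and 0.718 on the log2 scale. SNORD44 had 17 and 41 reads against 8 and 3 and was not called (adjusted p = 0.0831), and SNORD76 with 35 and 63 reads against 20 and 11 was not called either (adjusted p = 0.0839). SNORD75, the snoRNA called higher, had 2 and 2 reads against 4 and 3 reads (log2 fold change 0.55, SE 0.132, adjusted p = 0.0419), with a counting error of 0.904.

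The 8 snoRNAs of SNHG1 together had 170 and 172 reads against 84 and 84 reads, 54.1% of the control in RPM. SNORD30 had 22 and 21 reads against 6 and 6 reads (log2 fold change -1.42, SE 0.0469, counting error 0.471, adjusted p = 0.00359). This was the largest fall of the called snoRNAs on the scale of log2(RPKM + 1). As a ratio of mean RPKM to the control, SNORD30 stood at 30.8%. The called SNORD28 (28.5%) and SNORD74 of GAS5 (26.2%) stood lower. SNORD31 of SNHG1 had 18 and 18 reads against 15 and 15 reads and was not called (adjusted p = 0.203). The difference between SNORD30 and SNORD31 was not tested.

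The 4 snoRNAs of SNHG12 had 127 and 136 reads against 57 and 55 reads, 46.9% of the control in RPM. Most of these reads lay on SNORA61, with 87 and 84 against 34 and 36 reads (log2 fold change -1.07, SE 0.0393, adjusted p = 0.00359). SNORA24 of SNHG8 had 47 and 45 against 23 and 24 reads, and SNORA9 of SNHG15 had 44 and 37 against 22 and 27 reads, and both were called lower. SNORD50B of SNHG5, with 34 and 26 against 13 and 17 reads, and SNORA73B of SNHG3, with 13 and 13 against 6 and 6 reads, were called lower as well. SNORD50A of SNHG5, with 3 and 4 reads against 4 and 3, and SNORD87 of SNHG6, with 11 and 15 reads against 9 and 7, were not called. SNORA74A of SNHG4 had 1 read in all samples together, and SNORA17 and SNORA43 of SNHG7 had none, so the depth shows nothing on these.

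**Figure D3:**
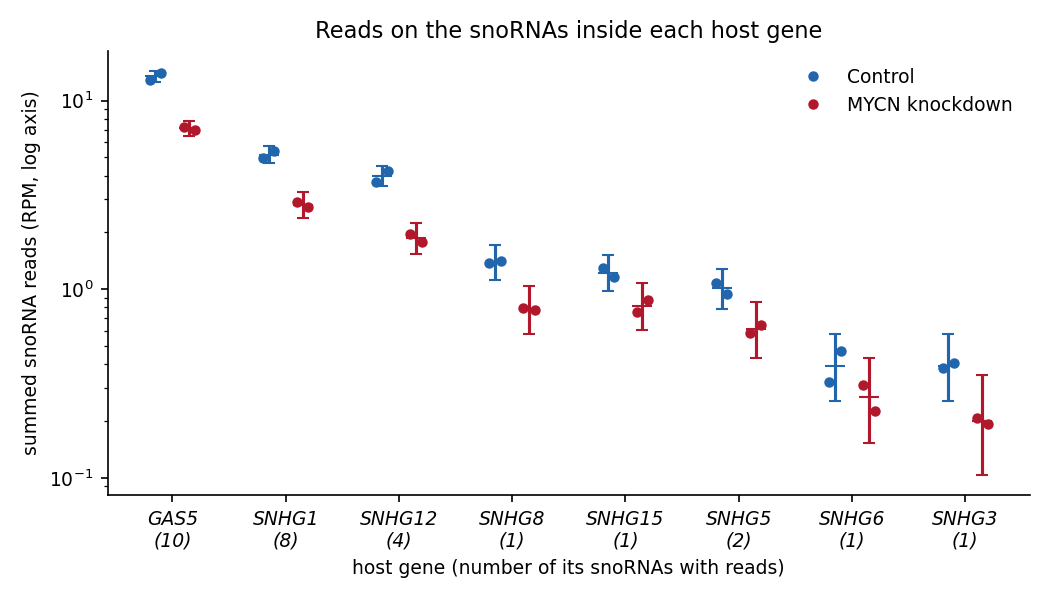
Reads on the snoRNAs of each host, summed and given in RPM on a log axis. Points are samples, dashes are group values and bars are 95% exact Poisson intervals of the summed group reads; GAS5, SNHG1 and SNHG12 hold most reads and stand at 53.0%, 54.1% and 46.9% of the control, and of the 8 hosts drawn the intervals of the groups overlap in SNHG15, SNHG5, SNHG6 and SNHG3. SNHG4 and SNHG7, with 1 read and no reads on their snoRNAs, are not drawn.

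The genes beside each host were read from the GENCODE annotation in GRCh37. They matter for 2 reasons: some share exon sequence with a host, and the sources used here do not state whether reads were counted by strand or how reads in overlapping genes were assigned. GAS5 lies on chr1:173827697-173838020, minus strand, and its 5′ end is 93 bases from that of ZBTB37 on the opposite strand. The E-box at position -204 of GAS5 therefore also lies within 1000 bases of the ZBTB37 start. ZBTB37 was not called, with 1.22 and 1.49 RPKM in the control against 1.67 and 1.37 RPKM, and neither was the overlapping GAS5-AS1.

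SNHG1 lies on chr11:62619450-62623425, minus strand, 50 bases from SLC3A2 on the opposite strand. SLC3A2, a subunit of amino acid transporters, stood at 89.6 and 77.9 RPKM in the control and at 42.8 and 49.1 RPKM after knockdown (log2 fold change -0.85). WDR74, a ribosome assembly factor on the other side, also fell (log2 fold change -0.97).

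SNHG3 lies on chr1:28832492-28837404, plus strand, and shares 242 exon bases with RCC1, the exchange factor of the GTPase Ran, which runs in the same direction. RCC1 stood at 52.4 and 52.6 RPKM against 31.9 and 31.9 RPKM (log2 fold change -0.70), so the values of this pair may share reads. The annotated 5′ ends of SNHG3 and RCC1 are also only 37 bases apart. SNHG4 on chr5:138609791-138620588, plus strand, shares 626 exon bases with MATR3 in the same direction. The annotated 5′ ends of SNHG4 and MATR3 are 27 bases apart, so the E-box near the start of SNHG4 is also near that of MATR3. MATR3 had 38.9 and 48.2 RPKM against 43.5 and 35.4 RPKM, which overlap between the groups, whereas those of SNHG4 do not.

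Other neighbours rose while the host fell. SNHG12 on chr1:28905050-28909644, minus strand, overlaps TRNAU1AP on the opposite strand by 8 exon bases, and TRNAU1AP rose from 4.77 and 4.47 RPKM to 7.09 and 7.54 RPKM (log2 fold change 0.57). SNHG8 on chr4:119199858-119206471, plus strand, shares 2487 exon bases with PRSS12 on the opposite strand, which rose from 20.3 and 24.2 RPKM to 44.2 and 37.3 RPKM (log2 fold change 0.84). CCM2 rose beside SNHG15 on chr7:45022618-45026560, minus strand (log2 fold change 0.63). SYNCRIP beside SNHG5 on chr6:86360209-86388650, minus strand, had a log2 fold change of -0.42 and was not called (adjusted p = 0.0579). PHACTR4 beside SNHG3 (-0.48) and TAF12 beside SNHG12 (-0.32) fell on the same log2 scale. SIL1 (0.17), which shares 118 exon bases with SNHG4 on the opposite strand, rose. The distant CTNNA1 (0.62), 339067 bases from SNHG4, and HTR1E (0.78), 1258595 bases from SNHG5, rose as well. AGPAT2 beside SNHG7 on chr9:139615818-139622636, minus strand, was not called. SNHG6 lies on chromosome 8, from 67832796 to 67838633 on the minus strand, and its overlapping neighbour MCMDC2 stood below 0.1 RPKM in all 4 samples.

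**Figure D4:**
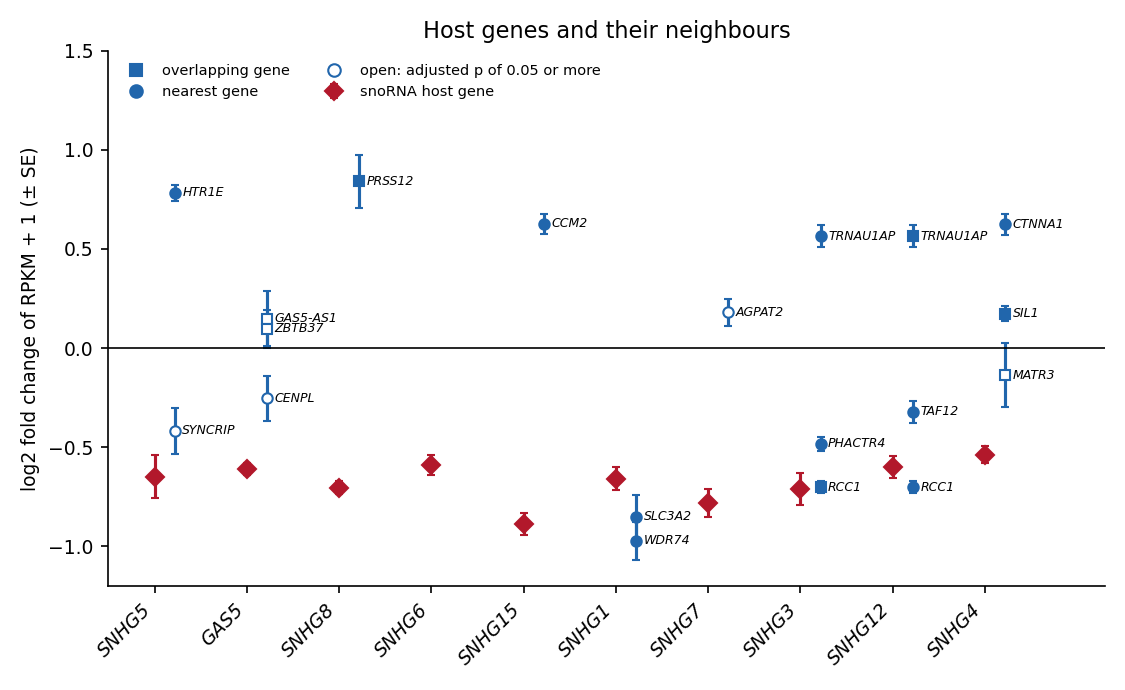
log2 fold change of RPKM + 1 for each host gene (red diamonds) and for its tested neighbours described here (blue; squares overlap the host, circles are the nearest genes, and open symbols were not called), with standard errors. RCC1, SLC3A2 and WDR74 lie as low as their hosts, and PRSS12, TRNAU1AP and CCM2 lie between 0.57 and 0.84.

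Other noncoding snoRNA hosts did not all follow the 10. Of 15 in the list 12 passed the level filter, 7 fell and 5 were not called, with a median log2 fold change of -0.30. Among all tested genes 22.8% were called lower. SNHG16 fell from 91.1 and 87.6 RPKM to 49.4 and 51.4 RPKM (log2 fold change -0.81, SE 0.0431, adjusted p = 0.0037). EPB41L4A-AS1, DANCR, SNHG17, ZFAS1, SNHG10 and LRRC75A-AS1 were the others that fell, with log2 fold changes from -0.78 to -0.28. SNHG9, SNHG11, SNHG19, SNHG20 and SNHG25 were not called, and SNHG9 stood at 20.6 and 16.4 RPKM in the control against 20.5 and 25.7 RPKM. Among 28 tested protein-coding snoRNA hosts 21 fell, and the median was -0.42. DKC1, the pseudouridine synthase of the H/ACA particle, fell the most (log2 fold change -1.15), and MAGED2, the host of SNORA11, rose (log2 fold change 1.33).

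**Figure D5:**
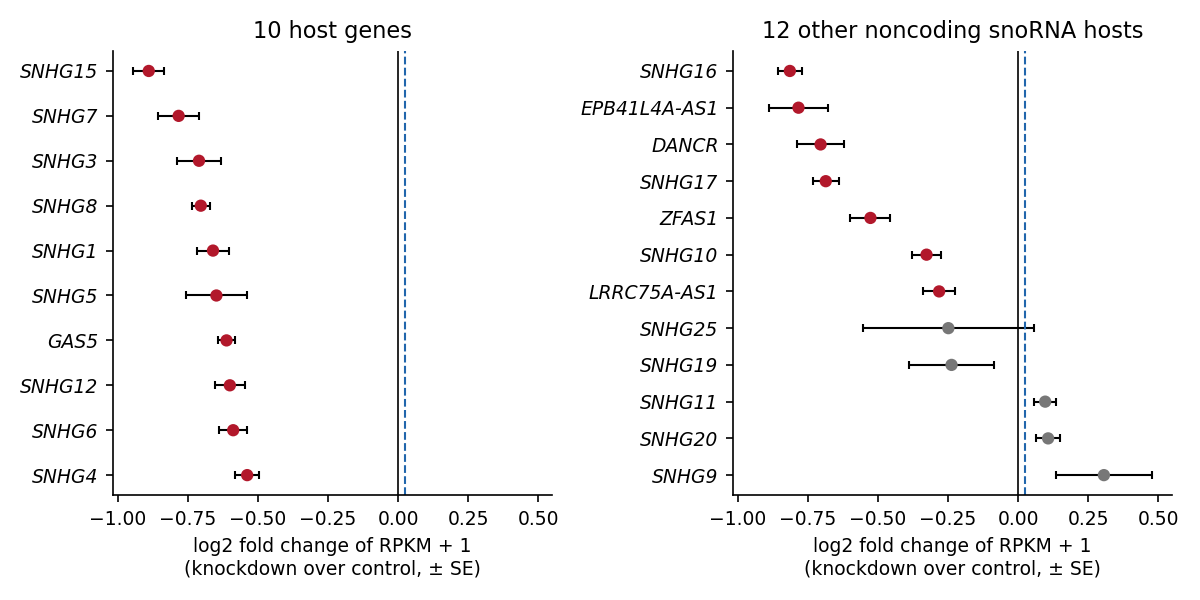
log2 fold change of RPKM + 1, knockdown over control, with standard errors, for the 10 host genes and for 12 other noncoding snoRNA hosts. Red points were called lower, grey points were not called, and the dashed line is the median of all tested genes, 0.03; the 10 hosts lie between -0.89 and -0.54.

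The products and partners of the hosts were described in the same way, beside 22.8% of all tested genes called lower and 25.3% called higher. Of the 8 core proteins of snoRNA particles 7 fell, with a median log2 fold change of -0.78, and NOP10 was not called. Of 10 assembly factors 8 fell (median -0.49), led by NOLC1, a nucleolar phosphoprotein that binds snoRNA particles, which went from 133 and 140.5 RPKM to 55.8 and 53.2 RPKM. Ribosomal protein genes share the oligopyrimidine start with part of the hosts. Of 76 tested 67 fell, with a median of -0.42 and RPS10 lowest at -0.68, so the median host fell further than the median ribosomal protein gene, a difference that was not tested. Of 15 nonsense-mediated decay factors 6 fell, with a median of -0.13 and DHX34 lowest at -0.63. Of 11 genes often used as reference 2 fell and 2 rose, with a median of -0.03, between HPRT1 at -0.68 and ACTB at 0.57.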

How the data were processed

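RNA-seq was performed on 2 control and 2 MYCN knockdown samples of BE(2)C cells. The authors deposited RPKM values per gene: per the study's methods and the submitters' processing notes, reads were mapped to hg19 with HISAT2 2.1.0, counted on RefSeq genes with featureCounts and normalized with DESeq2 and RUVSeq, and RPKM was computed from the normalized counts. The RUVSeq settings, the strand setting and the treatment of overlapping genes are not given in the sources used here. Values were tested on log2(RPKM + 1) with limma 3.58.1 (R 4.3.3; lmFit, eBayes with trend, two-sided) over the 11411 genes whose RPKM averaged 1 or more, and p-values were adjusted over all of them (Benjamini-Hochberg, called under 0.05). Library totals were recovered from the steps of the RPKM values with the RefSeq lengths of small RNA genes: 93.0% to 93.8% of those above 0 came out whole within 0.01. The length of each gene was then taken as the smallest whole number that gave whole reads in all samples. RUVSeq removes variation between samples, so the spread between replicates in these values need not be that of the raw reads. On simulated reads with 200 changed genes, drawn 10 times, the limma test recovered 90.5% of them, and 11.1% of its calls were unchanged genes. The simulated reads were independent between samples, did not pass through RUVSeq and held far fewer changed genes than were called here. These rates therefore need not hold for the values tested here.

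The replicate numbers in the labels are shared by both groups, but the deviations of samples with the same number from their group means were mirrored (correlation -0.98 over the tested genes), so the numbers were not taken to pair the samples and no block was used. limma treats the samples as independent, which the mirrored deviations are not, so its p-values may be too small. Named genes were the 10 hosts, their snoRNAs, the nearest or overlapping neighbours, and from each other list the largest fall and rise past the threshold. The further members of the other host list and NOP10 are given as values beyond that rule. The host genes and all lists were chosen with earlier results of these data known. Positions, motifs and sequences were taken from GRCh37 with GENCODE 44, read with pysam 0.24.0. snoRNAs were assigned to hosts from a list and checked by position in the RefSeq table, whose coordinates were not used otherwise. SNORA73A was not analysed here, and some genes of the lists and neighbours are not reported here.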

Additional observations from a re-analysis of the deposited data

How the results depend on the processing

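All 129 log2 fold changes of single hosts under 13 alternative settings kept their direction and their call, between -0.93 and -0.50, with a highest adjusted p of 0.0342 without a filter on low values. With a mean RPKM of at least 5, SNHG4 was not tested and 9 of 9 hosts fell; that filter left 2106 genes called lower and 1868 higher of 7859, against 2599 and 2890. Rescaling to the same total called 2122 genes lower and 3279 higher and moved the median of all genes from 0.03 to 0.08 and that of the hosts to -0.59. Leaving out each sample in turn gave host medians from -0.71 to -0.61, with the lone sample assumed to vary like the other group. With a replicate block the host median stayed at -0.65 and 10 hosts fell, among 1851 genes called lower and 2077 higher. Crossing the replicate numbers, chosen after seeing the data, gave 5262 genes lower and 5910 higher, with all 10 hosts lower. limma voom on the recovered reads called 2585 genes lower and 2906 higher, and all 10 hosts fell. With 2 samples a group, an exact test could not pass the threshold, and snoRNAs with few reads allow no statement.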

Other observations

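MYC, the paralogue of MYCN that is low in MYCN-amplified cells, stood at 0.780 and 0.542 RPKM in the control samples and at 6.73 and 9.32 RPKM in the knockdown samples (log2 fold change 2.43, SE 0.180, limma adjusted p = 0.00497), while all 10 host genes were lower. In reads scaled to library size (RPM), the 10 hosts together took 637 and 595 RPM in the control samples and 363 and 389 RPM in the knockdown samples.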
